A study of Sus scrofa with 6 samples.

Results

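The pentose phosphate pathway and a pair of cytosolic dehydrogenases supply epithelial cells with NADPH, and 8 genes for these enzymes were examined in IPEC-J2 cells, an untransformed porcine cell line from the jejunal epithelium. The 8 genes were PGLS, PGD, RPIA, RPE, TKT, TALDO1, ME1 and IDH1, picked by name and function, out of 31908 gene IDs in the deposited expression table. Of these, 7 carried their symbol in the table as deposited, and RPE was found by its description. The cells were given PBS (CON, n = 3) or 50 μM chenodeoxycholic acid (CDCA, n = 3), a primary bile acid, for 24 h, and RNA was sequenced. All 6 libraries came from the same cell line. The study calls the libraries of a group biological replicates without saying how the cultures were separated, and the p-values measure the spread between these libraries. The values are TPM, a length-corrected share of a library's transcripts, summed here over the listed transcripts of each gene ID.

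The oxidative branch of the pathway turns glucose-6-phosphate into ribulose-5-phosphate and makes NADPH on the way, with the lactonase PGLS followed by the dehydrogenase PGD. The non-oxidative branch interconverts sugar phosphates: the isomerase RPIA and the epimerase RPE act on ribulose-5-phosphate, and the transketolase TKT and the transaldolase TALDO1 pass carbon units back toward glycolysis. The cytosolic malic enzyme ME1 and the cytosolic isocitrate dehydrogenase IDH1 make NADPH outside the pathway. Cells spend NADPH to keep glutathione and thioredoxin reduced and to build fatty acids, sterols and deoxynucleotides, and several of these genes are known targets of the antioxidant factor NRF2.

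A complete library has a TPM total of 1000000, and the listed rows reached 351770 to 366073, so a gene sum covers listed transcripts only. The study gives read totals per sample, but the table holds no count per gene, so the counting error of a value was not computed here. Pearson's r of log2(TPM + 1) across 8708 genes (mean of 1 TPM or more), which are not independent replicates, was 0.972 to 0.980 within the groups and 0.927 to 0.934 between them. Of 7 epithelial markers, 6 were listed and 3 (KRT8, KRT18 and EPCAM) exceeded a mean of 1 TPM, whereas CDH1, VIL1 and CDX2 were listed at 0.64 TPM or less in each library. The leukocyte markers summed to 1.26 to 2.49 TPM in CON and 6.49 to 7.24 TPM in CDCA, a rise that came mostly from CD68, while the defining leukocyte gene PTPRC was listed at 0.01 TPM at most. The endothelial markers summed to 2.37 TPM at most and those of fibroblasts and smooth muscle to 1.87 TPM at most. Of the listed TPM, mtDNA-encoded mRNAs took 13.8% to 15.03% in the CON libraries and 2.90% to 3.45% in the CDCA libraries. TPM are shares of a total, and changes are also given with these mRNAs left out and the rest rescaled, where that moved a call or a value. These mRNAs were taken out of the listed total, not out of a complete total of 1000000, of which they hold a smaller share. The shifts are thus larger than for a complete library, and calls that turn on them depend on this choice. In such bulk RNA, fewer cells of a kind and less RNA per cell cannot be told apart.

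Compared with CON, PGD, TALDO1 and ME1 were higher in CDCA, and none of the other members passed the test. The differences were tested by limma on log2(TPM + 1) over all 8708 genes with Benjamini-Hochberg adjustment (FDR), and a gene passed where its FDR was under 0.05. The filter of 1 TPM left 7 of the 8 members in the test and removed TKT. Among the 7, 3 were higher and 0 lower, with 4 that did not pass, where 29.3% of all tested genes were higher and 23.9% lower. At an unadjusted p under 0.05 the count of lower members was also 0, and no second tool was run for these values. None of the members changed by more than 1 on the log2 scale, a size reached together with the FDR limit by 3.51% of the tested genes upward and by 3.90% downward. The median log2 fold change of the 7 members was 0.09, compared with 0.05 over all tested genes.

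PGD, the 6-phosphogluconate dehydrogenase, which makes NADPH, had 86.9, 88.1 and 100.5 TPM in the CON libraries and 152.4, 153.6 and 155.3 TPM in the CDCA libraries. The lowest CDCA library lay well above the highest CON library, and the CDCA libraries lay closer together than the CON libraries. The mean rose from 91.85 ± 7.5 TPM to 153.8 ± 1.5 TPM (SD, n = 3 each), a ratio of 1.67. The log2 fold change was 0.74 (SE 0.06, limma FDR 0.00011), higher than that of 91.6% of the tested genes. One transcript held all of the PGD signal, as the other listed transcript was at 0 in each library.

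PGLS, the lactonase that acts just before PGD in the same branch, had 37.4, 42.4 and 38.99 TPM (CON) and 44.8, 39.3 and 42.3 TPM (CDCA). These groups overlapped, with means of 39.6 ± 2.5 TPM and 42.1 ± 2.7 TPM (SD, n = 3 each). Its log2 fold change was 0.09 (95% interval -0.07 to 0.25, limma FDR 0.32), and it was -0.085 once the mtDNA-encoded mRNAs were left out of the totals and 0.04 to 0.14 with a library left out. The upper bound of the PGLS interval lay below the lower bound of the PGD interval, 0.60, although the difference between the 2 genes was not part of the fit.

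**Figure D1:**
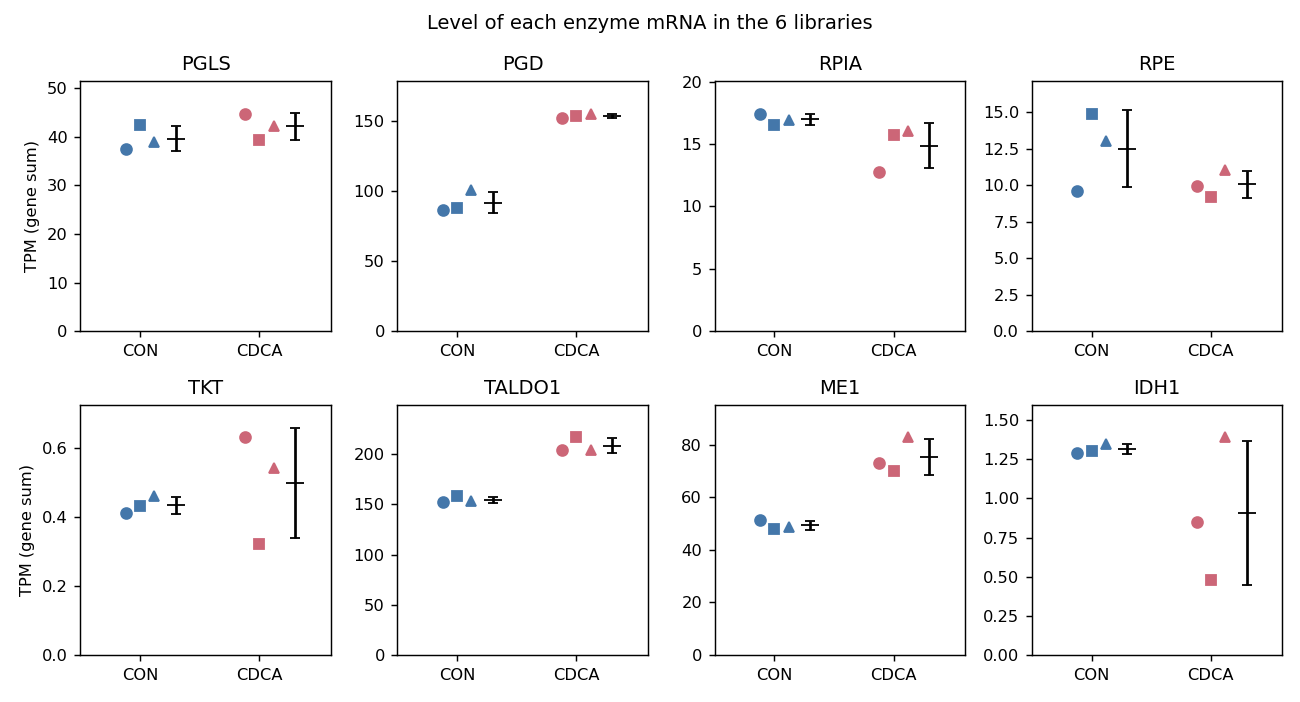
Level of the 8 enzyme mRNAs in TPM (vertical axis, from 0, a different scale per panel) in CON (blue) and CDCA (red), with circles, squares and triangles for replicates 1, 2 and 3 and a black bar for the mean ± SD (n = 3). The 3 CDCA libraries lie above the 3 CON libraries for PGD, TALDO1 and ME1 and below them for RPIA, while the groups overlap for PGLS, RPE, TKT and IDH1.

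In the non-oxidative branch, TALDO1 rose while RPIA and RPE had values below CON that did not pass the test. TALDO1, the transaldolase, was the most abundant member in either group, with 152.7, 158.2 and 152.98 TPM (CON) and 204.5, 216.8 and 203.9 TPM (CDCA). Every CDCA library was above every CON library, and the mean rose from 154.6 ± 3.1 TPM to 208.4 ± 7.3 TPM (SD, n = 3 each), or 1.35 times CON. On the log2 scale it rose by 0.43 (SE 0.04, limma FDR 0.00018). Without the mtDNA-encoded mRNAs in the totals it was 0.25 (limma FDR 0.0016), which moved the value by more than for PGD in proportion. The main listed transcript held over 99% of the TALDO1 sum in both groups.

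RPIA, the isomerase that yields ribose-5-phosphate for nucleotides, had 17.4, 16.6 and 16.9 TPM (CON) and 12.8, 15.7 and 16.1 TPM (CDCA). The groups did not overlap, but CDCA replicate 1 lay far below the other CDCA libraries, and the gap between the groups was small. The log2 fold change was -0.19 (SE 0.09, 95% interval -0.40 to 0.03, limma FDR 0.12), and with totals without the mtDNA-encoded mRNAs it was -0.35 (limma FDR 0.016). Without CDCA replicate 1 it was -0.089 (limma FDR 0.27). Among all tested genes, groups that did not overlap were found for 33.7% upward and 27.8% downward, against 3 and 1 of the 7 members.

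RPE, the epimerase that yields xylulose-5-phosphate, had 9.63, 14.89 and 12.99 TPM (CON) and 9.94, 9.18 and 11.02 TPM (CDCA). CON replicate 1 fell within the CDCA range, and the other CON libraries lay above it. The log2 fold change was -0.27 (SE 0.15, limma FDR 0.17). Without CON replicate 1 it was -0.44 (limma FDR 0.016), without CON replicate 2 it was -0.15 (limma FDR 0.44), and without the mtDNA-encoded mRNAs it was also -0.44 (limma FDR 0.047).

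TKT, the transketolase that RPIA and RPE feed, had 0.41, 0.43 and 0.46 TPM (CON) and 0.63, 0.32 and 0.54 TPM (CDCA), and was not tested. The groups overlapped, and the level was under 1% of that of TALDO1 in each library. Its 3 listed transcripts were each under 0.4 TPM. The second of them had 0.06, 0 and 0 TPM (CON) and 0.32, 0.26 and 0.18 TPM (CDCA), while the first was at 0.29, 0.38 and 0.34 TPM and at 0.23, 0 and 0.28 TPM. The listed values of these transcripts thus lay in opposite directions, but they were too low to test or to read as a change between transcripts. The table lists only part of each library's TPM, so the low sum was not read as absence of the enzyme.

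Of the cytosolic dehydrogenases, ME1 rose and IDH1 was near the limit of 1 TPM. ME1, which turns malate into pyruvate, had 51.4, 48.1 and 48.9 TPM (CON) and 73.3, 69.9 and 82.9 TPM (CDCA). The groups were well separated, with means of 49.5 ± 1.7 TPM and 75.4 ± 6.7 TPM (SD, n = 3 each), or 1.52 times CON. On the log2 scale ME1 rose by 0.59 (SE 0.07, limma FDR 0.0005), and by 0.42 (limma FDR 0.0028) without the mtDNA-encoded mRNAs. The rise lay in the most abundant of its listed transcripts, from 43.1 ± 1.2 TPM to 69.5 ± 7.4 TPM, whereas the second was at 6.42 ± 0.59 TPM in CON and 5.90 ± 1.2 TPM in CDCA, with overlapping groups. The remaining pair of listed ME1 transcripts was at 0 in all libraries.

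IDH1, which oxidises isocitrate in the cytosol and peroxisome, had 1.29, 1.30 and 1.35 TPM (CON) and 0.85, 0.48 and 1.39 TPM (CDCA). The CON values were nearly equal, and the CDCA values spread from below them to above them. The log2 fold change was -0.31 (SE 0.19, limma FDR 0.21), while leaving out CDCA replicate 3 gave -0.48 (limma FDR 0.048) and leaving out CDCA replicate 2 gave -0.14 (limma FDR 0.51). At these levels a fold change on log2(TPM + 1) is smaller than the ratio of the TPM, which was 0.690 for IDH1.

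**Figure D2:**
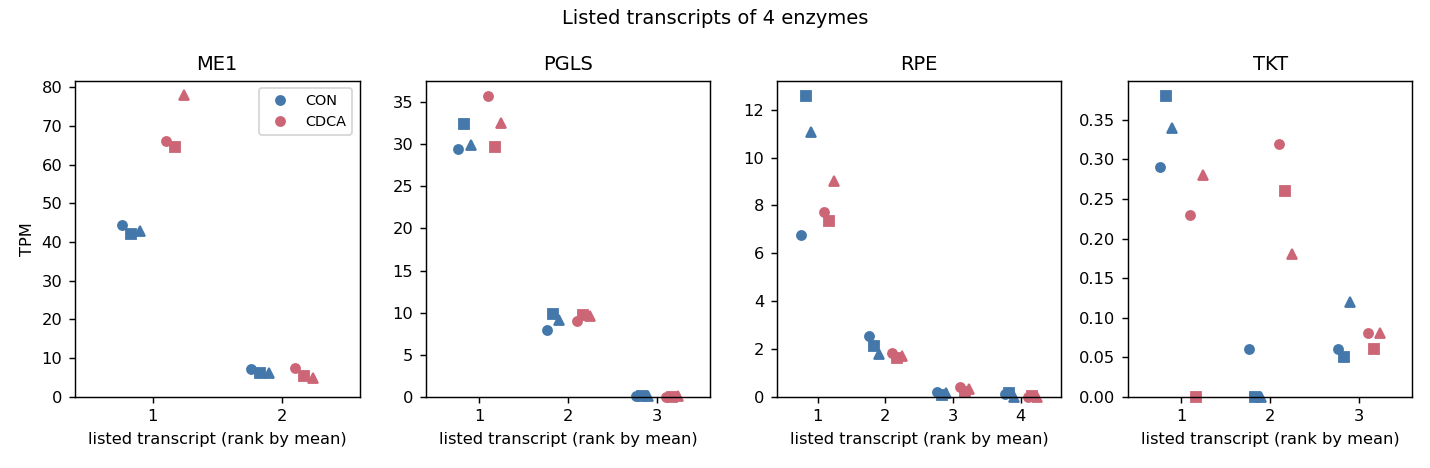
TPM (vertical axis, from 0) of each listed transcript of ME1, PGLS, RPE and TKT, ordered by mean level (horizontal axis), in CON (blue) and CDCA (red), with symbols for replicates 1 to 3 as circle, square and triangle, leaving out transcripts at 0 in all libraries. The first ME1 transcript is higher in CDCA while its second is not, and all TKT transcripts are under 0.4 TPM.

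The order of the levels was the same in both groups: TALDO1, PGD, ME1, PGLS, RPIA, RPE, IDH1 and TKT. In CON no neighbours in this order had overlapping ranges, and in CDCA only IDH1 (0.48 to 1.39 TPM) and TKT (0.32 to 0.63 TPM) did. TALDO1 and PGD were among the most abundant of the tested genes, at percentiles 97.2 and 95.9 of the mean level, followed by ME1 at 91.7 and PGLS at 87.5, whereas IDH1 was at 2.7. The members that rose were thus the 3 most abundant of the 8. Summed over the members, the level was 366.8 ± 8.4 TPM in CON and 506 ± 7.1 TPM in CDCA (SD, n = 3 each), a ratio of 1.38. By branch, the ratio was 1.49 for PGLS and PGD, 1.27 for RPIA, RPE, TKT and TALDO1, and 1.502 for ME1 and IDH1, and in each sum PGD, TALDO1 or ME1 held most of the TPM. These sums are descriptions and were not tested.

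Ratios between genes within a library do not depend on the scaling of that library, and 7 of them were formed after the values had been seen. The PGD to PGLS ratio was 2.32, 2.08 and 2.58 in CON and 3.41, 3.90 and 3.68 in CDCA, without overlap. The ME1 to ME2 ratio, which sets the cytosolic malic enzyme against its mitochondrial counterpart, was 1.30, 1.33 and 1.42 in CON and 1.98, 1.92 and 2.03 in CDCA. The ratios PGD to TALDO1, TALDO1 to RPIA and ME1 to IDH2 were also higher in each CDCA library than in each CON library, with means 1.24, 1.55 and 1.67 times the CON mean. For each of these 5 ratios the exact two-sided permutation test gave p = 0.1, the smallest that 3 libraries against 3 allow (0.14 adjusted over the 7 ratios). The PGD to ME1 ratio was 1.86 ± 0.18 in CON and 2.05 ± 0.16 in CDCA and the PGLS to RPIA ratio 2.34 ± 0.21 and 2.88 ± 0.54 (SD, n = 3 each), both with overlapping groups (exact permutation p = 0.2, and 0.2 adjusted).

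**Figure D3:**
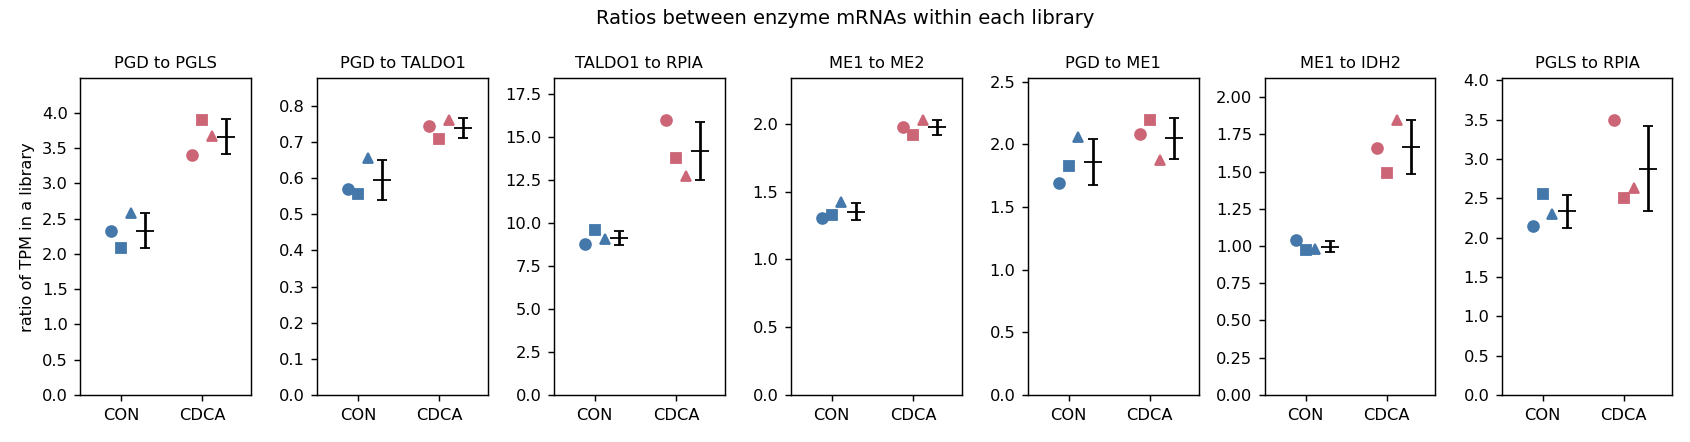
Ratio of the TPM of 2 genes within each library (vertical axis, from 0) for 7 pairs, in CON (blue) and CDCA (red), with replicates 1 to 3 as circle, square and triangle and the mean ± SD (n = 3) in black. The groups do not overlap for 5 pairs and overlap for PGD to ME1 and PGLS to RPIA.

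Of a list of 26 other genes of the pathway and of NADPH supply, 24 were listed and 21 tested. In CDCA 7 of the 21 were higher and 8 lower while 6 did not pass, beside 29.3% higher and 23.9% lower over all tested genes, and the median log2 fold change was -0.17. The count of lower genes fell whichever library was left out. It was 3 without CON replicate 2, 4 without CDCA replicate 1 or 3, 5 without CON replicate 1 or CDCA replicate 2, and 6 without CON replicate 3. By setting, it was 3 without a filter, 4 with the replicate block, and 5 with no trend or with listed TPM rescaled to 1000000. It was 7 with the highest listed transcript, 8 with a pseudocount of 0.1 TPM or scaling by median ratios, and 9 without the mtDNA-encoded mRNAs. All but 3 of the 15 that passed had a change under 1 in size. Of the mitochondrial counterparts of ME1, neither passed: ME2 was at 36.7 ± 2.5 TPM in CON and 38.1 ± 2.4 TPM in CDCA (log2 fold change 0.05, 95% interval -0.11 to 0.22, limma FDR 0.54), and ME3 was at 1.73 ± 0.03 and 1.95 ± 0.23 TPM (0.11, limma FDR 0.39). IDH2, the mitochondrial isocitrate dehydrogenase that makes NADPH, had 49.4, 49.6 and 50.04 TPM (CON) and 44.2, 47.02 and 44.8 TPM (CDCA). This small fall (log2 fold change -0.13, limma FDR 0.033) passed under only 5 of 14 alternatives, and was -0.30 (limma FDR 0.0009) without the mtDNA-encoded mRNAs.

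NADK and NNT, which supply NADP+ and NADPH by other routes, were lower. NADK, the cytosolic kinase that turns NAD+ into NADP+, had 49.3, 45.3 and 48.5 TPM (CON) and 24.8, 30.4 and 27.1 TPM (CDCA) (log2 fold change -0.78, SE 0.08, limma FDR 0.00027). The highest CDCA library lay far below the lowest CON library. NNT, the transhydrogenase of the inner mitochondrial membrane, had 24.2, 22.8 and 21.0 TPM (CON) and 14.5, 13.3 and 13.8 TPM (CDCA) (log2 fold change -0.67, SE 0.07, limma FDR 0.00025), again without overlap. Both genes passed under all 14 alternatives. NADK2, the mitochondrial NAD+ kinase, had a log2 fold change of -0.175 (limma FDR 0.19), of -0.325 (limma FDR 0.039) without the mtDNA-encoded mRNAs, of -0.092 (limma FDR 0.46) without CDCA replicate 2 and of -0.045 (limma FDR 0.9) with the highest listed transcript. H6PD, a dehydrogenase that makes NADPH in the endoplasmic reticulum, had 0.46, 1.97 and 2.31 TPM (CON) and 0.80, 0.23 and 0.85 TPM (CDCA) (log2 fold change -0.60, limma FDR 0.18), passed with CON replicate 1 left out (-0.97, limma FDR 0.015), and had -1.10 (limma FDR 0.22) with a pseudocount of 0.1 TPM.

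Folate enzymes, some of which also make NADPH, held the 3 changes of the list over 1 in size. MTHFD1, the cytosolic enzyme, fell from 37.9 ± 1.5 TPM to 16.75 ± 0.49 TPM (log2 fold change -1.13, SE 0.05, limma FDR 1.1e-05). ALDH1L2, the mitochondrial formyltetrahydrofolate dehydrogenase, had 0, 0 and 0.08 TPM (CON) and 5.52, 3.11 and 5.06 TPM (CDCA) (log2 fold change 2.41 on log2(TPM + 1), SE 0.19, limma FDR 9.6e-05). ALDH1L1, its cytosolic counterpart, had 0.53, 0.13 and 0.93 TPM (CON) and 2.67, 2.04 and 1.93 TPM (CDCA) (log2 fold change 1.10, limma FDR 0.0053). MTHFD2, named after its value was seen, is the mitochondrial counterpart of MTHFD1 and had a log2 fold change of 0.94 (limma FDR 0.00011). The cytosolic enzymes thus moved in both directions. The sizes for genes near 0 depended on the scale: with a pseudocount of 0.1 TPM the log2 fold change was 5.22 for ALDH1L2 and 2.11 for ALDH1L1, and with listed TPM rescaled to 1000000 it was 3.65 for ALDH1L2 and 1.64 for ALDH1L1.

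**Figure D4:**
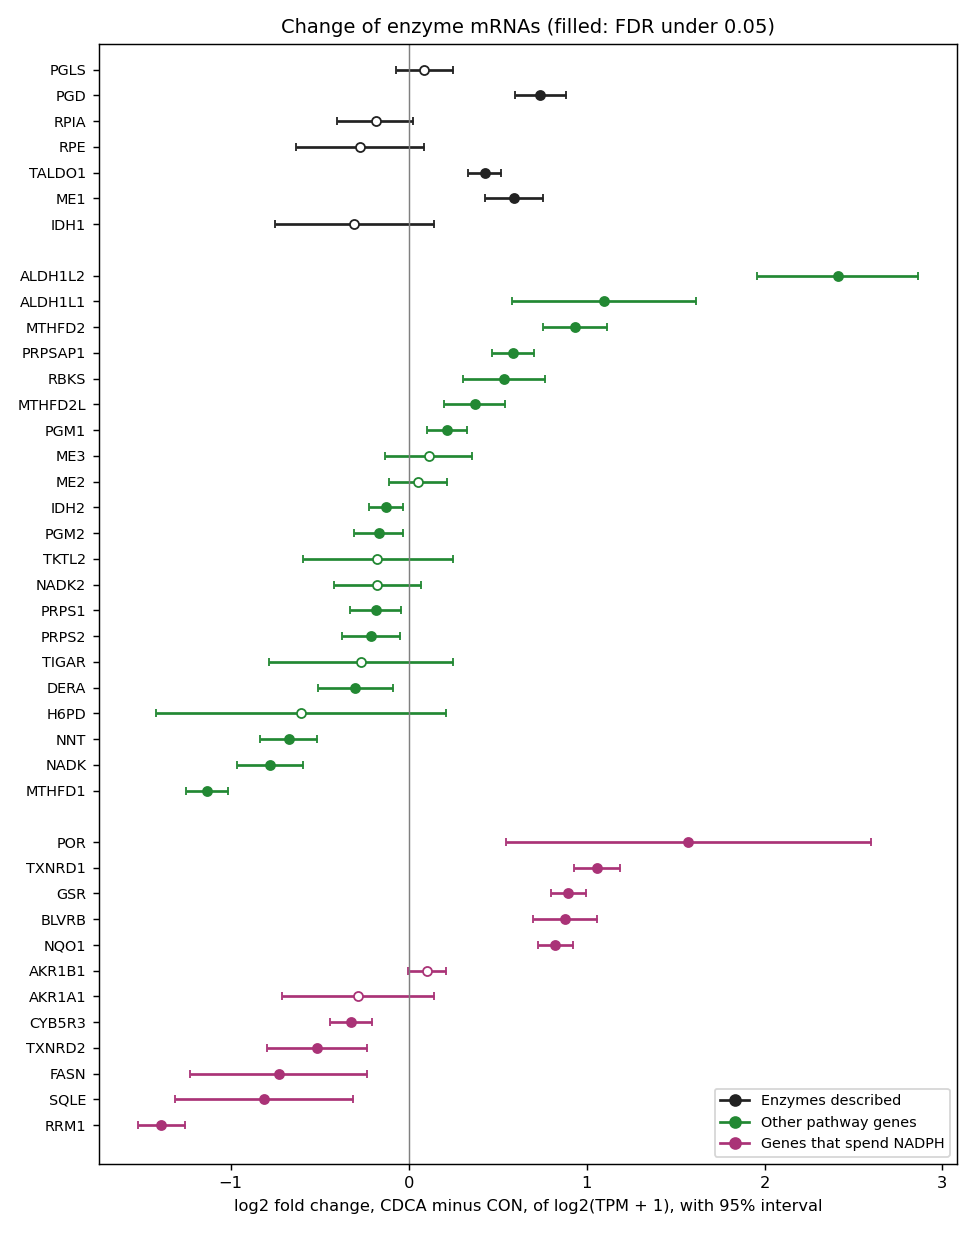
Log2 fold change of CDCA minus CON on log2(TPM + 1) (horizontal axis) with its 95% interval, for the 7 tested members (black), 21 other pathway genes (green) and most of the tested genes that spend NADPH (purple), filled where the limma FDR is under 0.05. PGD, ME1 and TALDO1 lie to the right of 0, NADK, NNT and MTHFD1 to the left.

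Of a list of 21 genes that spend NADPH, all were listed and 15 tested. In CDCA 5 of the 15 were higher and 7 lower while 3 did not pass, beside the same 29.3% and 23.9% over all tested genes, and the median log2 fold change was -0.28. The 5 that rose were TXNRD1, POR, GSR, NQO1 and BLVRB, the last 3 named after their values were seen. TXNRD1, the cytosolic thioredoxin reductase, rose from 28.8 ± 1.5 TPM to 61.2 ± 2.4 TPM (log2 fold change 1.06, SE 0.055, limma FDR 1.9e-05), and GSR, the glutathione reductase, from 43.1 ± 1.4 TPM to 81.1 ± 1.7 TPM (0.90, limma FDR 1.2e-05). NQO1, a quinone reductase, had a log2 fold change of 0.825 (limma FDR 1.7e-05) and BLVRB, a biliverdin and flavin reductase, one of 0.88 (limma FDR 0.00013). POR, the reductase that serves the microsomal P450 enzymes, had 0.81, 5.24 and 3.89 TPM (CON) and 10.02, 10.5 and 10.4 TPM (CDCA) (log2 fold change 1.57, SE 0.43, limma FDR 0.02), and its FDR was 0.054 without CDCA replicate 2, 0.053 without CDCA replicate 3 and 0.055 with no filter. Without CON replicate 1, the lowest POR library, its log2 fold change was 1.035 (limma FDR 0.0014).

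RRM1, a subunit of the ribonucleotide reductase that draws on NADPH through thioredoxin, fell from 45.4 ± 2.7 TPM to 16.7 ± 0.22 TPM (log2 fold change -1.39, SE 0.055, limma FDR 7.9e-06). Among the lower genes, named after their values were seen, were SQLE of sterol synthesis (-0.81), FASN of fatty acid synthesis (-0.73), the mitochondrial TXNRD2 (-0.51) and CYB5R3 (-0.32), which prefers NADH. Of these, FASN was at low levels, with 1.75, 2.75 and 3.45 TPM (CON) and 1.44, 1.28 and 0.81 TPM (CDCA) (SE 0.21, limma FDR 0.024). The rise of PGD, TALDO1 and ME1 therefore stood beside 5 higher and 7 lower genes that spend NADPH. The higher ones included TXNRD1, GSR and NQO1, and the lower ones RRM1 and TXNRD2. Whether these changes are linked was not tested.

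The rises of PGD, TALDO1 and ME1 passed in all 14 alternatives, with log2 fold changes of 0.57 to 0.81 for PGD, 0.25 to 0.45 for TALDO1 and 0.42 to 0.67 for ME1. The lowest values came without the mtDNA-encoded mRNAs in the totals. Leaving out any single library kept the log2 fold change between 0.70 and 0.81 for PGD, 0.40 and 0.44 for TALDO1, and 0.52 and 0.645 for ME1. Over all tested genes the same rescaling changed the split from 2550 higher and 2085 lower to 1680 higher and 2905 lower.

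**Figure D5:**
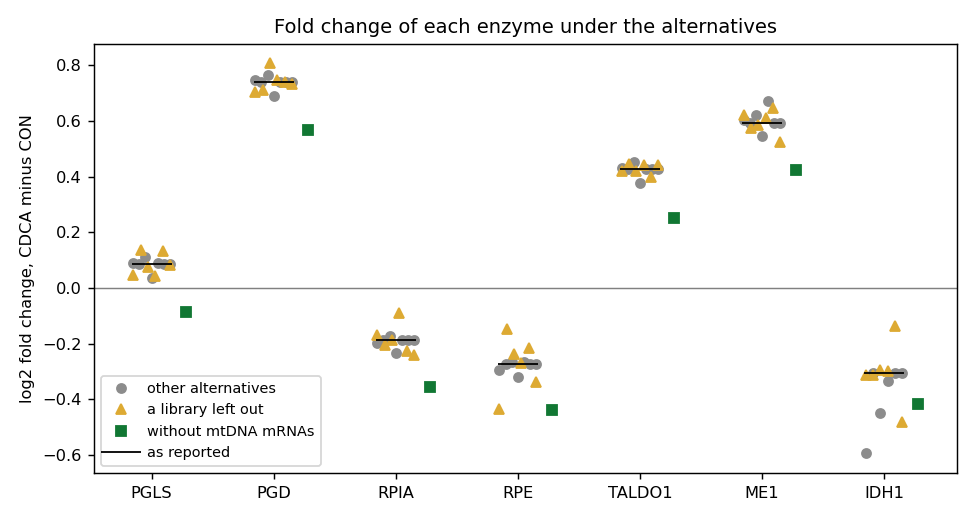
Log2 fold change of CDCA minus CON (vertical axis) of the 7 tested members as reported (black line), with a library left out (yellow triangles), without the mtDNA-encoded mRNAs in the totals (green squares) and under the other alternatives (grey circles). PGD, TALDO1 and ME1 stay above 0, and PGLS falls below 0 only without the mtDNA-encoded mRNAs.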

How the data were processed

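RNA from 3 CON and 3 CDCA libraries was analysed, grouped by the sample labels. Libraries were made with the TruSeq kit and sequenced on an Illumina instrument. The deposited values are TPM from RSEM, made by the authors and rounded to 2 decimals, in 63041 rows read here as transcripts. The submitters' processing notes name Bowtie 0.12.2 and mm10, a mouse build, although the IDs are pig Ensembl genes; their role is not given in the sources used here, and no coordinates or sequences were used.

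TPM were summed per gene ID. Symbols came from the deposited table, then from its descriptions matched to RefSeq (985 IDs), then from a table of Ensembl symbols (370 IDs). The test, limma 3.58.1 with a trend (R 4.3.3), took genes whose mean reached 1 TPM, on log2(TPM + 1), a pseudocount of 1, with Benjamini-Hochberg adjustment over the 8708 genes. The steps were tested on simulated data. The edgeR test of the study was not run, since it takes read counts. The planned search of promoters for motifs was not run.

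Members and lists were chosen with earlier results of these data known. The genes named were the 8 members, counterparts of members (H6PD, ME2, ME3, IDH2, NNT, NADK and NADK2), list genes with an FDR under 0.05 and a log2 fold change over 1 in size, and the 3 genes whose profile was most like that of the members; some list genes are counted but not reported by name here. Alternatives were a pseudocount of 0.1 TPM, no filter, 3 scalings, the highest listed transcript, a replicate block, no trend and each library left out. The scaling without the mtDNA-encoded mRNAs kept the listed total of each library.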

Additional observations from a re-analysis of the deposited data

How the results depend on the processing

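Under 14 alternatives, 3 members were higher each time, and PGD, TALDO1 and ME1 made up that count. The count of lower members, 0 as reported, was 2 (RPIA and RPE) without the mtDNA-encoded mRNAs and 0 to 1 with a library left out (RPE without CON replicate 1, IDH1 without CDCA replicate 3). Lower genes of the pathway list, 8 as reported, numbered 3 without a filter, 5 with listed TPM rescaled to 1000000, 5 with no trend and 4 with the replicate block. With a library left out they numbered 3 to 6 (3 without CON replicate 2, 4 without CDCA replicate 1 or 3, 5 without CON replicate 1 or CDCA replicate 2). They numbered 7 to 9 under the remaining settings, with 9 without the mtDNA-encoded mRNAs. Without the mtDNA-encoded mRNAs, the median log2 fold change of all tested genes was -0.10 in place of 0.05, genes higher over all tested numbered 1680, and the ratios of summed TPM were 1.32 (oxidative), 1.12 (non-oxidative), 1.33 (dehydrogenases) and 1.22 (all members). Directions turned there for PGLS (-0.085), ME2 (-0.12) and ME3 (-0.001), and for ME2 (-0.045) with the highest listed transcript; none of these passed. IDH1 had no value with the highest listed transcript, whose mean was under 1 TPM. Libraries of the same replicate number did not deviate together (r of -0.04, -0.09 and -0.05), so the replicate block is only a check: 3 members were higher and 0 lower with it. Causes of these shifts were not tested, apart from those that follow from the fewer samples or the changed totals. Without counts per gene, the counting error of low values such as those of TKT and IDH1 was not computed.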

Other observations

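The 3 tested genes with a symbol whose log2(TPM + 1) was most like the mean standardised profile of the 7 tested members over the 6 libraries were CALU (Pearson r 0.991), EID2 (0.989) and IRF8 (0.985). The CON and CDCA values overlapped for each of these genes, and 0.353% of 8211 candidates had r over 0.9. CALU and EID2 were listed at 1.99 TPM or less in each library, so the likeness rests on low values. The profile mixes members with values above and below CON and is a description only.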
